A study of Rattus norvegicus with 16 samples.

Results

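The proteasome genes of the rat diencephalon (thalamus and hypothalamus) were followed through dietary zinc deficiency and recovery on 16 arrays. Members were all genes with a symbol of the proteasome families (*Psma*, *Psmb*, *Psmc*, *Psmd*, *Psme*, *Psmf* or *Psmg* and a number) that stood alone on at least 1 probe set, each gene represented by the probe set of highest mean log2 signal over the 16 arrays. This gave 46 of the 14217 genes with a probe set of their own. Of these, 44 were bright enough to be tested, and *Psmb8* and *Psmb9* fell below the filter on dim probe sets. The name also caught 2 genes that do not encode proteasome subunits, *Psmc3ip*, a meiotic recombination factor, and *Psme3ip1*, a partner of an activator, and it missed *Psmb6* and *Psme3*, whose probe sets list several genes.

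Each array held the RNA of 1 male Sprague-Dawley (SD) rat, with 4 rats in each of 4 groups, and all rats began their diets at 5 weeks of age. In the ZD group, rats were kept zinc-deficient for 10 days with food that held 0.6 mg zinc per kg. Their pair-fed controls (PF) were given, for the same 10 days, as much food as ZD rats ate, at 30 mg zinc per kg. Recovery rats (ZR) had 10 days of the deficient diet and then 6 days of the control diet, and their controls (ZRPF) were pair-fed the control diet for 10 days and kept on it for those 6 days, in which both groups had a fixed ration of 13 g. All 4 groups were offered 300 mM NaCl in a preference test, and the submitters chose for arrays the rats nearest the average of body weight, zinc in plasma and preference for salt, out of 9 deficient and 6 pair-fed rats that began each experiment. RNA was amplified and labelled from the 3' end of transcripts. Since the controls ate amounts matched to the deficient rats, reduced intake is common to each pair of groups.

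The proteasome is the protease that degrades ubiquitin-tagged proteins. Its core is a barrel of stacked rings, the outer ones of alpha subunits and the inner ones of beta subunits, of which some carry the active sites. A regulatory particle caps the barrel: ATPases and scaffold proteins of its base unfold the substrate, and its lid holds *Psmd14*, a deubiquitinase of the zinc metalloprotease kind that removes the ubiquitin chain. Neurons rely on the complex for the turnover of synaptic proteins, and when its activity fails, the transcription factor NRF1 (*Nfe2l1*) is known to raise most subunit genes together through antioxidant response elements. Under interferon, *Psmb8*, *Psmb9* and *Psmb10* replace the standard catalytic subunits to form the immunoproteasome, which supplies peptides to MHC class I.

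The promoters of 5 members are shown. *Psme4* and *Psmd1* had higher signals in the 16-day than in the 10-day arrays, and *Psma2* and *Psmb4* lower ones. *Psmb9*, on a dim probe set, was the only member with its ZD arrays apart from the PF arrays, and it did not pass the threshold in a fit without the filter. The sequences are those of RefSeq on build GRCr8, from 250 bases before the annotated start of the gene to 50 bases after it, written on the strand of the gene. They lie at chr14:108706393-108706692 (plus strand) for *Psme4*, chr9:94157721-94158020 (plus) for *Psmd1*, chr17:55260392-55260691 (minus) for *Psma2*, chr2:185134512-185134811 (minus) for *Psmb4* and chr20:4668750-4669049 (plus) for *Psmb9*. Capitals mark every match, on either strand, to 4 motifs: TGACNNNGC, the core of the antioxidant response element, GGGCGG, the GC box, CCAAT, the CCAAT box, and GAAA and GAAA set 2 bases apart, a form of the interferon-stimulated response element.

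Psme4: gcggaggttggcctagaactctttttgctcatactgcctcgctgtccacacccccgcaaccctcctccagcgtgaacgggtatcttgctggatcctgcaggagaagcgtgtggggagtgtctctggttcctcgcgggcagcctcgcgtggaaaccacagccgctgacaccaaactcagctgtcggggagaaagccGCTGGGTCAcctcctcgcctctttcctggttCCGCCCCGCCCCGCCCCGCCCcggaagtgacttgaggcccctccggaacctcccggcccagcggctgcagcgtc
Psmd1: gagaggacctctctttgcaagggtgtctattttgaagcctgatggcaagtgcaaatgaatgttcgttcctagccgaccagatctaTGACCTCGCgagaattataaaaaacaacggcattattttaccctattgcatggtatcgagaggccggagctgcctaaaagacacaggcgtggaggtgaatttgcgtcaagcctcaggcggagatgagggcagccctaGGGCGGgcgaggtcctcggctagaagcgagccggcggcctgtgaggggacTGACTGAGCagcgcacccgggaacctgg
Psma2: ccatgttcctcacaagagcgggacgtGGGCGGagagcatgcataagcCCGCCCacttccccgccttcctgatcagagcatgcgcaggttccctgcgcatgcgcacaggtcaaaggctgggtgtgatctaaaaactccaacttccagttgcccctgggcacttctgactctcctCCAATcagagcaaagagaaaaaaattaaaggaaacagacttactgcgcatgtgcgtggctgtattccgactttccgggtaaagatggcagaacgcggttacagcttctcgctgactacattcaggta
Psmb4: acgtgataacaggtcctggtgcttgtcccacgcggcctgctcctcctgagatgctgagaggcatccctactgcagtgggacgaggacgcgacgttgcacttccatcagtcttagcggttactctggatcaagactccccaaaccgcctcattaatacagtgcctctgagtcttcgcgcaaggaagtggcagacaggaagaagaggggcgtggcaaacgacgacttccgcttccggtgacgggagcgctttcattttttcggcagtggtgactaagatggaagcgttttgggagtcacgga
Psmb9: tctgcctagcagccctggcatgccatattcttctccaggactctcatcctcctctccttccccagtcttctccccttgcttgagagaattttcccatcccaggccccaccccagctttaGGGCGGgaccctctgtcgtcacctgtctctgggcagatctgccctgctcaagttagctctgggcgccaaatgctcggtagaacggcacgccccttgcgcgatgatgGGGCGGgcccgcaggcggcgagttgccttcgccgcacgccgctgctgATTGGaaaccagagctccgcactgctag

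*Psme4* held 1 match to the antioxidant response core, at -55 to -47 from the start, and 4 GC boxes that overlap between -24 and -4. *Psmd1* held 2 matches to the antioxidant response core, at -165 to -157 and at 23 to 31, and 1 GC box. *Psma2* held 2 GC boxes and 1 CCAAT box, *Psmb9* 2 GC boxes and 1 CCAAT box, and *Psmb4* none of these letters in the window. Promoters were found for 42 of the 46 members, not for *Psmd14*, *Psmd6*, *Psmd12* and *Psma7*. The antioxidant response core occurred in 7 of the 42 (16.7%: *Psma3*, *Psmb2*, *Psmb5*, *Psmd1*, *Psmd3*, *Psmd9* and *Psme4*), against 12.2% of all 27457 promoters of that length. The GC box occurred in 29 members (69.0% against 34.9% of all), the CCAAT box in 22 (52.4% against 37.7%) and the interferon-type element in 7 (16.7% against 3.77%), among them *Psmb8* and *Psmb10*. The median GC content was 56.5% in the members and 52.3% in all promoters. The motifs were chosen with results of these data known, and a match is a description of the letters only.

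The effect of zinc deficiency apart from reduced food intake was read from ZD against PF. No proteasome gene passed the test there, and the intervals of the changes were narrow. None of the 44 tested members passed the threshold (limma, Benjamini-Hochberg adjusted p under 0.05 over all 15521 probe sets tested), none had an unadjusted p under 0.05, and in none did the 4 ZD arrays lie apart from the 4 PF arrays. Over all probe sets the corresponding shares were 0%, 7.86% and 4.19%. Log2 changes ran from -0.10 to 0.13, with a median size of 0.04 against 0.08 over all probe sets, and the smallest adjusted p was 0.681. Members and all probe sets were not matched for signal here. The SE of the members ran from 0.05 (*Psma5*, mean log2 signal 11.3) to 0.15 (*Psmc3ip*, 7.55, near the filter). For 37 of the 44 genes the 95% interval of the change lay inside a 1.2-fold change in either direction, and the widest limits reached on the log2 scale were -0.26 and 0.43. The sign was positive in 35 genes and negative in 9, with a median of 0.035 against 0.008 over all probe sets, and this median turned to -0.008 without array ZD 9 and to -0.008 when arrays were centred on their medians.

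**Figure D1:**
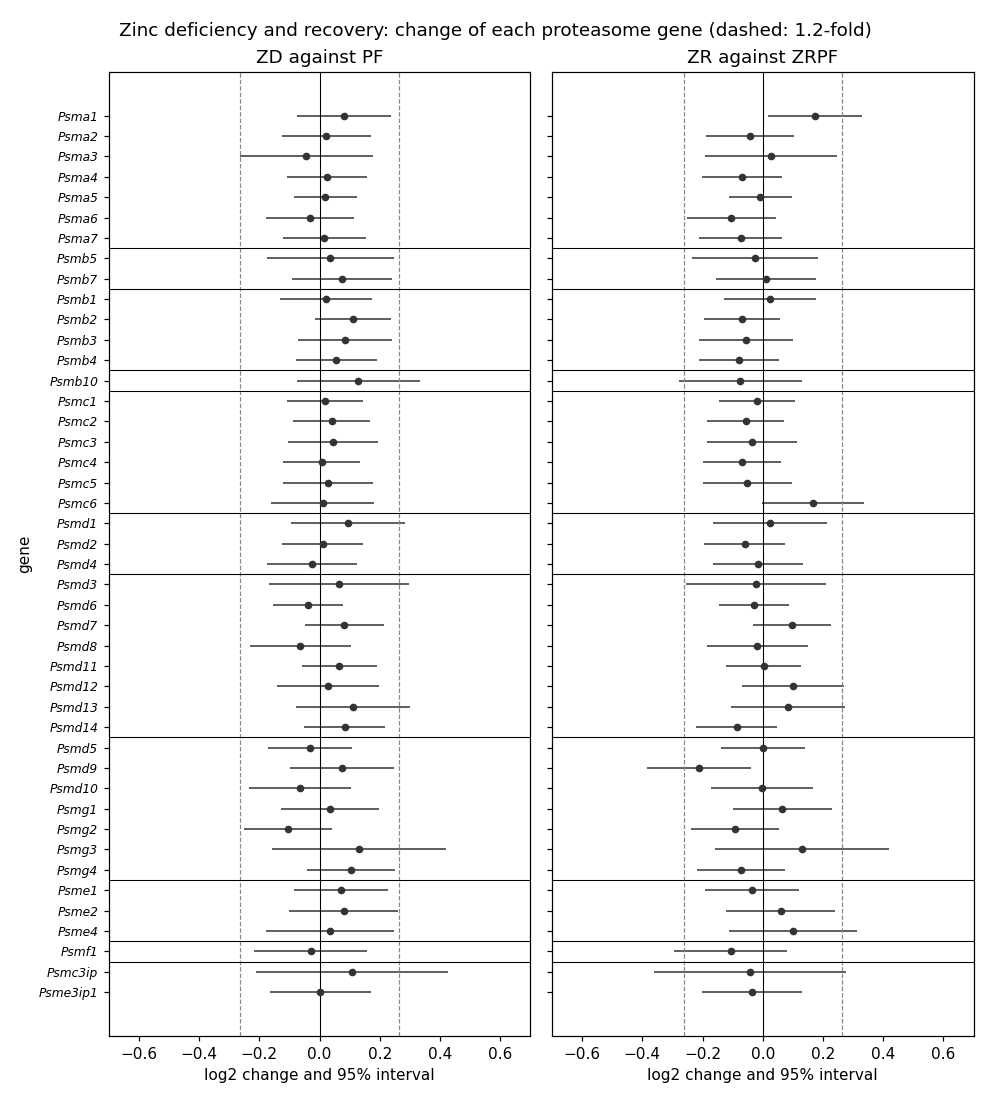
Log2 change (points, x axis) with its 95% interval (bars) of the 44 tested proteasome genes (y axis, grouped by role as in the heat map of all arrays), for ZD against PF on the left and ZR against ZRPF on the right, 4 arrays per group. Dashed lines mark a 1.2-fold change: 37 intervals on the left and 34 on the right lie between them.

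Among the catalytic subunits, *Psmb5*, which carries the chymotrypsin-like site, had signals of 5214, 5234, 4705 and 4903 in the PF arrays and 4919, 4596, 4934 and 6237 in the ZD arrays. The groups overlapped, with 1 high array (ZD 9), and the log2 change was 0.04 ± 0.10 (SE, adjusted p = 0.953). *Psmb7*, which carries the trypsin-like site, had a change of 0.07 ± 0.08 (adjusted p = 0.853). The smallest p in this comparison was that of *Psmb2*, a core beta subunit without an active site, with signals of 3008, 2934, 3011 and 3068 in PF and 3328, 3125, 3013 and 3539 in ZD, a log2 change of 0.11 ± 0.06. Of the regulatory particle, the ubiquitin receptors *Psmd2* and *Psmd4* had changes of 0.01 ± 0.06 and -0.02 ± 0.07. The zinc metalloprotease *Psmd14* had 2538, 2552, 2525 and 2577 in PF and 2546, 2706, 2702 and 2857 in ZD, a log2 change of 0.08 ± 0.06 (adjusted p = 0.788). Its partner in the lid, *Psmd7*, stood at 0.08 ± 0.06 on its brightest probe set and at -0.09 ± 0.08 on another, so the probe sets of that gene gave opposite signs, neither past the threshold. The lid subunit *Psmd8* stood at -0.06 ± 0.08.

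Of the genes around the core, the activators *Psme1* and *Psme2*, which open the barrel for peptide production, had changes of 0.07 ± 0.07 and 0.08 ± 0.09 in ZD against PF. The nuclear activator *Psme4* stood at 0.04 ± 0.10, with -0.23 ± 0.12 and -0.07 ± 0.21 on its other probe sets, and the inhibitor *Psmf1* at -0.03 ± 0.09. Among the assembly chaperones, *Psmg2*, which helps build the alpha ring, had -0.10 ± 0.07, its counterpart *Psmg4* 0.11 ± 0.07, and *Psmd10*, a chaperone of the base, -0.06 ± 0.08. None of these passed the threshold.

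*Psmb9*, the interferon-inducible subunit that takes the caspase-like site of the immunoproteasome, was the member with ZD set apart from PF, at a signal below the filter. Its signals were 124, 120, 122 and 139 in PF, 178, 205, 166 and 164 in ZD, 153, 125, 142 and 151 in ZRPF, and 148, 138, 96.7 and 141 in ZR. All 4 ZD arrays lay above all arrays of the other 3 groups. In a fit without the filter the log2 change of ZD against PF was 0.49 ± 0.15 (SE, 95% interval 0.18 to 0.81), a 1.41-fold difference, with a limma adjusted p of 0.546 over 31042 probe sets. An exact two-sided permutation test of the 4 against 4 arrays gave p = 0.0286, the smallest value the 70 regroupings allow. Any probe set without overlap gets this p, so it adds nothing to the order of the arrays by which *Psmb9* was singled out. *Psmb9* was the only such member of the 46, where 3.73% of all probe sets without the filter had ZD and PF arrays without overlap. Such an order was thus no more frequent among the members than among all probe sets. The ZR arrays lay below all ZD arrays (log2 change -0.46 ± 0.15, adjusted p = 0.0705), ZR against ZRPF gave -0.14 ± 0.15, and the difference between the 2 diet effects was -0.64 ± 0.21 (adjusted p = 0.826). The fall from ZD to ZR, this difference and the place of ZD above the other 3 groups reuse the ZD values by which *Psmb9* was singled out. They are therefore no separate evidence, and the share of all probe sets with such orders is not given here.

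For the other inducible subunits the ZD and PF arrays overlapped. *Psmb8*, the inducible counterpart of *Psmb5*, had signals of 181, 147, 148 and 144 in PF and 181, 134, 129 and 165 in ZD, with a log2 change of -0.04 ± 0.16 (exact permutation p = 0.83). *Psmb10*, the counterpart of *Psmb7*, had 474, 384, 386 and 439 in PF and 469, 491, 393 and 487 in ZD, with a change of 0.13 ± 0.10. Of the list on peptide supply to MHC class I and its inducers, 5 of the 9 genes on the array were bright enough to be tested and none passed in either diet comparison. *Irf1*, an interferon-responsive transcription factor known to act on *Psmb9*, had a change of 0.41 ± 0.16 in ZD against PF (adjusted p = 0.558), and *Calr*, the calreticulin chaperone of MHC class I loading, -0.09 ± 0.10. Of the 9 tested markers of microglia none passed in ZD against PF. Their summed signal, that of the 13 on the array, was 10919 to 13112 in PF and 12013 to 16175 in ZD, and that of the markers of meninges and mural cells was 5622 to 6770 and 5790 to 10718, with all 10 tested markers higher in sign. The sum of the ependyma markers was 3133 to 3447 in PF and 3564 to 4575 in ZD, without overlap, with 6 of 6 higher in sign. That of the choroid plexus markers was 7721 to 9268 and 8559 to 19865 (7 of 7 higher in sign), and that of the endothelium markers 8909 to 10022 and 9769 to 11367 (9 of 11). Some other lists went the other way: 10 of 10 thalamus markers (median -0.15), 7 of 8 astrocyte markers and 7 of 9 oligodendrocyte markers were lower in sign in ZD. None of these markers passed the threshold there. Their part in the *Psmb9* values was not tested, and in whole tissue more cells of a type and more RNA per cell cannot be told apart.

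**Figure D2:**
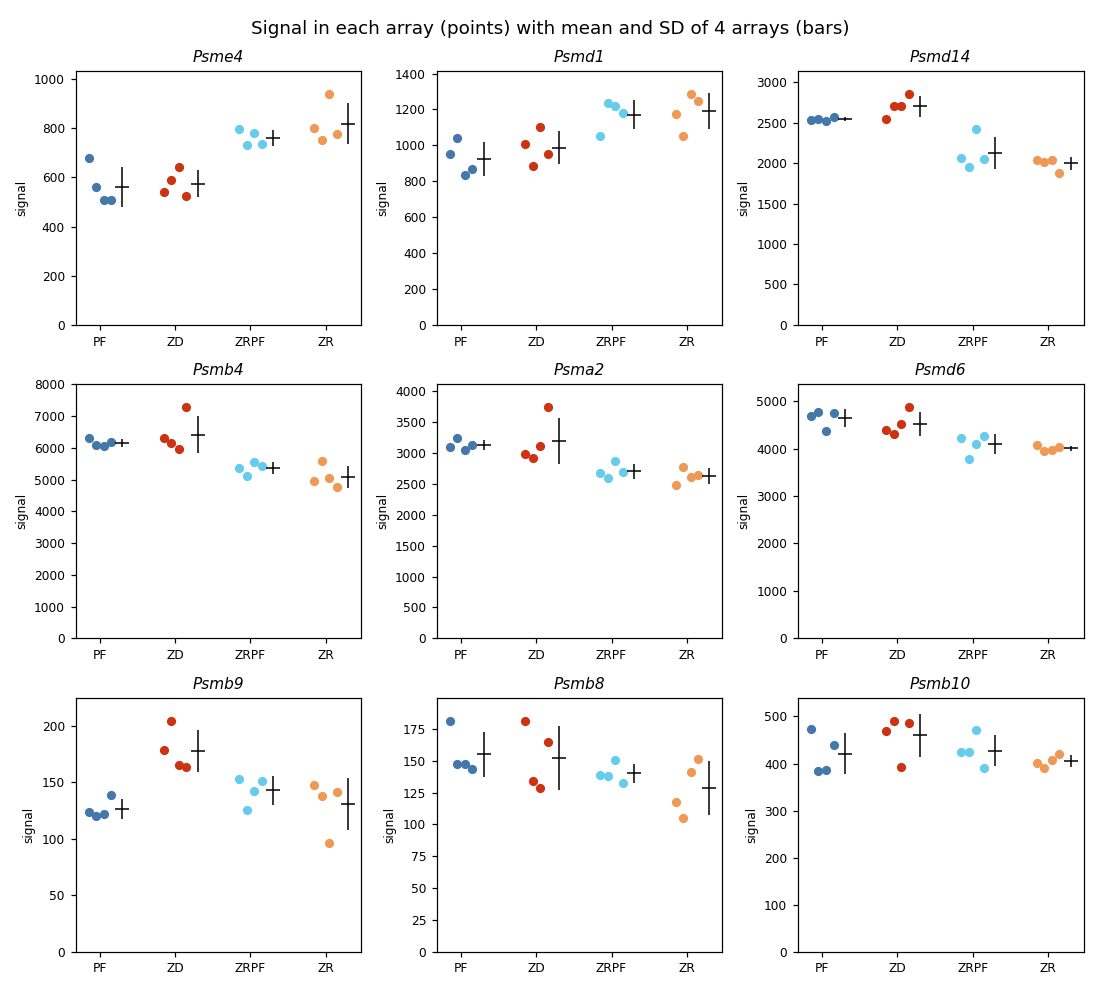
Signal (y axis, linear, from 0) of 9 proteasome genes in each of the 16 arrays by group (points), with the mean and SD of 4 arrays (bars beside the points). *Psme4* and *Psmd1* are higher in ZRPF and ZR, *Psmd14*, *Psmb4*, *Psma2* and *Psmd6* are lower there, and *Psmb9* is highest in ZD, where its 4 arrays lie at 164 to 205.

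After 6 days of zinc repletion, what remained between rats with a history of deficiency and their controls was again small. In ZR against ZRPF no tested member passed the threshold (0.00644% of all probe sets did), and 2 had an unadjusted p under 0.05 (5.21% of all did). Of the 44, 2 had groups without overlap, both lower in ZR, where 2.98% of all probe sets had none. Log2 changes ran from -0.21 to 0.17 with a median of -0.028 (-0.005 over all), 15 genes were positive and 29 negative, and 34 intervals lay within a 1.2-fold change.

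*Psmd9*, a chaperone that helps assemble the ATPase ring, had signals of 444, 419, 474 and 452 in ZRPF and 387, 375, 392 and 390 in ZR. All 4 ZR arrays were lower, with a log2 change of -0.21 ± 0.08 (unadjusted p = 0.0193, adjusted p = 0.927). The other gene without overlap was *Psmc4*, an ATPase of the base named here after its values were seen, with 1878, 1847, 1888 and 1872 in ZRPF, 1742, 1826, 1726 and 1846 in ZR and a change of -0.07 ± 0.06. *Psma1*, an alpha ring subunit, had 2145, 2015, 2038 and 1910 in ZRPF and 2474, 2348, 2264 and 2069 in ZR. These groups overlapped, with a change of 0.17 ± 0.07 (unadjusted p = 0.0315, adjusted p = 0.927). The ATPase *Psmc6* stood at 0.17 ± 0.08, with 0.06 ± 0.09 and 0.24 ± 0.11 on its other probe sets, *Psmd7* at 0.10 ± 0.06, *Psma6* at -0.11 ± 0.07 and *Psmd14* at -0.09 ± 0.06. Nearer to 0 lay the catalytic subunits *Psmb5* (-0.03 ± 0.10) and *Psmb7* (0.01 ± 0.08), the receptors *Psmd2* (-0.06 ± 0.06) and *Psmd4* (-0.02 ± 0.07), and *Psme1* (-0.04 ± 0.07) and *Psme2* (0.06 ± 0.09). *Psmb10* stood at -0.07 ± 0.10, *Psme4* at 0.10 ± 0.10 and *Psmf1* at -0.11 ± 0.09.

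The change with deficiency and the change that remained after recovery come from separate rats, and 20 of the 44 members had the same sign in both (45.5%, against 48.4% of all probe sets). Tested directly, the difference between the diet effects passed for no member and for 0% of all probe sets. An unadjusted p under 0.05 was found for 2 members and for 6.60% of all. These were *Psmd9* (-0.29 ± 0.12, adjusted p = 0.747) and *Psmb2* (-0.18 ± 0.08, adjusted p = 0.747). *Psmd14* followed with -0.17 ± 0.09 (adjusted p = 0.756), and on the positive side *Psmc6* with 0.16 ± 0.11, *Psma1* with 0.09 ± 0.11 and *Psmd12*, a lid subunit, with 0.07 ± 0.11.

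Between the experiments some proteasome genes differed, as did many other probe sets. The 16-day arrays had lower signals than the 10-day arrays for most subunits, by small amounts, and higher ones for *Psme4* and *Psmd1*. A sign of RNA quality differed between the same arrays: the log2 ratio of the 3' to the 5' probe sets of beta-actin, a control for RNA integrity and labelling length, was 1.37 to 1.73 in the 10-day arrays and 2.05 to 2.48 in the 16-day arrays, without overlap. With this ratio as a covariate no member passed in either comparison, where 0.0451% and 0.110% of all probe sets did. The ratio divides the arrays as the experiments do, so this fit can hardly separate ratio and experiment. ZRPF against PF compares pair-fed controls, and ZR against ZD recovered with still deficient rats, and these comparisons share no array. In ZRPF against PF, 2 members rose (4.55% of the 44, where 9.50% of all probe sets rose) and 6 fell (13.6%, against 6.15%). In ZR against ZD, 2 rose (4.55%, against 9.16%) and 8 fell (18.2%, against 8.18%). The sign was negative in 31 of 44 members and in 40 of 44, where about even shares of all probe sets were negative (51.0% and 51.1%), and the median change was -0.09 and -0.14, against -0.005 and -0.006 over all. Members and all probe sets were not matched for signal in these comparisons either. When arrays were centred on their medians, 1 rose and 14 fell in ZRPF against PF, where 6.28% of all probe sets rose and 13.8% fell, with a median change of -0.18 for the members and -0.09 over all probe sets.

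**Figure D3:**
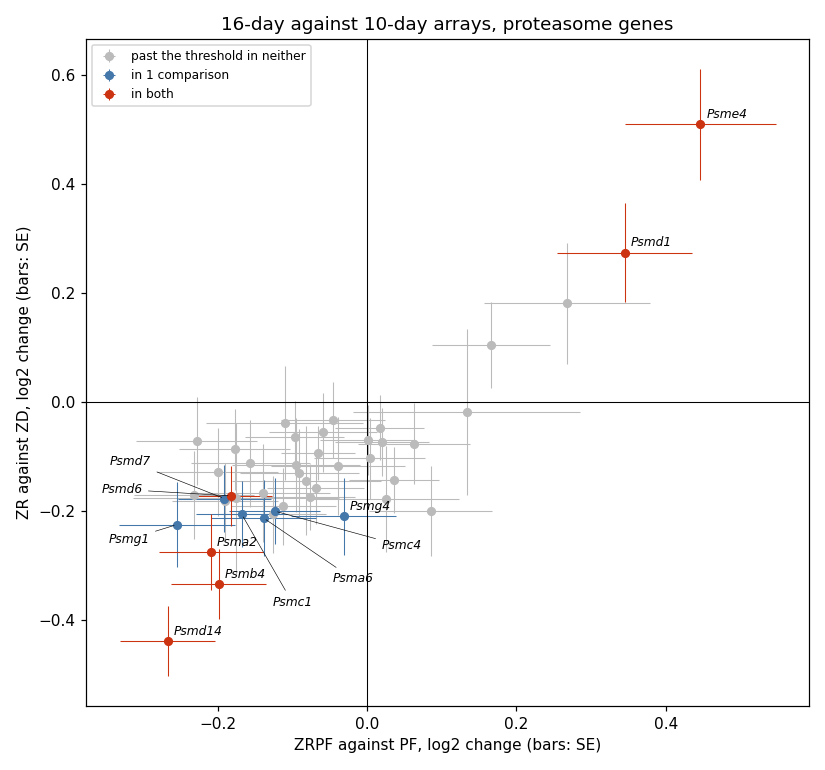
Log2 change of ZRPF against PF (x axis) and of ZR against ZD (y axis) for the 44 tested proteasome genes, with standard errors as bars. Red genes passed the threshold in both comparisons, blue genes in 1 and grey genes in neither: *Psme4* and *Psmd1* stand at the upper right, and *Psmd14*, *Psmb4*, *Psma2* and *Psmd6* at the lower left.

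The same sign in both comparisons was found for 35 of 44 members (79.5%, against 72.1% of all probe sets), 31 of them lower and 4 higher. Past the threshold in both were 2 genes that rose (4.55%, against 5.82% of all probe sets) and 4 that fell (9.09%, against 3.24%). All 8 16-day arrays lay above all 8 10-day arrays for 1 member, *Psme4* (4.81% of all probe sets did), and below them for 6, *Psma2*, *Psmb4*, *Psmc1*, *Psmc4*, *Psmd14* and *Psmd6* (2.92% of all did). With 1 array left out, 3 to 6 members passed in ZRPF against PF and 4 to 12 in ZR against ZD. Shares of all probe sets were not taken in these fits, so changes of the members and of the whole array cannot be told apart. *Psme4* and *Psmd14* passed each time in both comparisons, *Psmd1* in the first, and *Psmb4* and *Psma2* in the second. Between the pair-fed groups, *Psmb4* was lost without any 1 of the 8 arrays and *Psma2* without any but ZRPF 5. *Psmd6* was lost there without PF 1, 2 or 6 or ZRPF 4 or 5, *Psmd7* without PF 2, 4 or 6 or ZRPF 2, 4 or 5, and *Psmg1* without PF 2 or 6 or ZRPF 2 or 4. In ZR against ZD, *Psmc1* was lost without ZD 9 or ZR 7, 10 or 15, *Psmc4* without ZD 2 or 9 or ZR 7 or 13, and *Psma6* without ZD 2, 3 or 9 or ZR 7, 13 or 15. *Psmg4* was lost there without ZD 2 or 3 or any ZR array, and *Psmd6* without ZD 2, 8 or 9 or any ZR array.

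*Psme4*, the activator of the nuclear proteasome known for the breakdown of acetylated histones, had the largest increase of the members. Its signals were 679, 559, 507 and 507 in PF and 541, 591, 644 and 524 in ZD, and 796, 733, 781 and 736 in ZRPF and 802, 755, 941 and 776 in ZR. Every 16-day array was above every 10-day array, and the log2 change was 0.45 ± 0.10 between the pair-fed groups (adjusted p = 0.00586) and 0.51 ± 0.10 between ZR and ZD (adjusted p = 0.00226), or 1.36-fold and 1.42-fold. Its other probe sets stood at 0.18 ± 0.12 and 0.56 ± 0.21 between the pair-fed groups, not past the threshold, and at 0.49 ± 0.12 (adjusted p = 0.0108) and 0.71 ± 0.21 (adjusted p = 0.0265) in ZR against ZD.

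*Psmd1*, the scaffold on which ATPases and ubiquitin receptors of the base are mounted, was the other gene that rose. Its signals were 954, 1041, 835 and 865 in PF, 1007, 883, 1100 and 952 in ZD, 1052, 1233, 1218 and 1181 in ZRPF, and 1176, 1053, 1287 and 1249 in ZR. PF lay below ZRPF throughout, while ZR and ZD overlapped. The log2 change was 0.34 ± 0.09 (adjusted p = 0.0144) in the first comparison and 0.27 ± 0.09 (adjusted p = 0.0438) in the second, and the second lost the threshold without any 1 of 6 arrays (ZD 2, 3 or 9, ZR 7, 13 or 15). *Psmd3*, a lid subunit, had changes of 0.27 ± 0.11 and 0.18 ± 0.11, past the threshold in neither.

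The largest decrease was that of *Psmd14*, the zinc metalloprotease of the lid. Beside the PF and ZD values above, its signals were 2068, 1956, 2419 and 2054 in ZRPF and 2044, 2018, 2038 and 1884 in ZR, so that every 16-day array was below every 10-day array. The log2 change was -0.27 ± 0.06 between the pair-fed groups (adjusted p = 0.00837) and -0.44 ± 0.06 in ZR against ZD (adjusted p = 0.000187). Of its other probe sets, one fell in both comparisons (-0.30 ± 0.09, adjusted p = 0.034, and -0.36 ± 0.09, adjusted p = 0.011), and the dimmest stood at -0.22 ± 0.18 and fell by 0.63 ± 0.18 (adjusted p = 0.0194). Other lid subunits had smaller changes. *Psmd6* had 4686, 4764, 4361 and 4741 in PF, 4392, 4297, 4514 and 4870 in ZD, 4221, 3789, 4091 and 4258 in ZRPF, and 4074, 3955, 3963 and 4034 in ZR. It fell in both comparisons, by 0.18 ± 0.06 (adjusted p = 0.032) and 0.17 ± 0.06 (adjusted p = 0.0392). *Psmd7* fell in ZRPF against PF (-0.19 ± 0.06, adjusted p = 0.0437) and stood at -0.18 ± 0.06 in ZR against ZD, just outside the threshold (adjusted p = 0.0566). Of the 8 lid genes, 3 fell between the pair-fed groups and 2 in ZR against ZD, and none rose. Beside these small counts stand the shares of all probe sets given above (6.15% fell and 9.50% rose in the first comparison, 8.18% and 9.16% in the second).

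In the core, *Psmb4*, a beta subunit without an active site, had 6317, 6077, 6052 and 6191 in PF, 6301, 6153, 5956 and 7277 in ZD, 5356, 5112, 5564 and 5441 in ZRPF, and 4955, 5584, 5048 and 4770 in ZR. The 16-day arrays all lay below the 10-day arrays. It fell by 0.20 ± 0.06 (adjusted p = 0.0418) and by 0.33 ± 0.06 (adjusted p = 0.00171). *Psma2*, an alpha ring subunit, had 3093, 3241, 3042 and 3130 in PF, 2987, 2921, 3116 and 3737 in ZD, 2673, 2590, 2876 and 2684 in ZRPF, and 2475, 2779, 2617 and 2641 in ZR. It too had no overlap between the experiments, and it fell by 0.21 ± 0.07 (adjusted p = 0.0497) and by 0.27 ± 0.07 (adjusted p = 0.0114). *Psma6*, another alpha subunit, fell in ZR against ZD (-0.21 ± 0.07, adjusted p = 0.0448). Of the 7 alpha ring genes, 6 were lower in sign between the pair-fed groups and 7 in ZR against ZD. Neither catalytic subunit passed: *Psmb5* stood at -0.08 ± 0.10 and -0.14 ± 0.10, and *Psmb7* at 0.17 ± 0.08 and 0.10 ± 0.08.

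Of the 6 base ATPases, all were lower in sign in both comparisons, where 51.0% and 51.1% of all probe sets were, and 2 fell in ZR against ZD (8.18% of all probe sets did). *Psmc1* had 3126, 3227, 3038 and 3377 in PF, 3203, 3053, 3079 and 3622 in ZD, 2843, 2793, 2784 and 2942 in ZRPF, and 2804, 2814, 2936 and 2661 in ZR. Its groups did not overlap between the experiments, and it fell by 0.21 ± 0.06 in ZR against ZD (adjusted p = 0.0257), after -0.17 ± 0.06 between the pair-fed groups (adjusted p = 0.0681). *Psmc4* fell by 0.20 ± 0.06 (adjusted p = 0.0313). *Psmc6* stood at -0.23 ± 0.08 between the pair-fed groups, outside the threshold, while another of its probe sets fell (-0.28 ± 0.09, adjusted p = 0.0473). The receptor *Psmd4* stood at -0.19 ± 0.07 and -0.18 ± 0.07 and *Psmd2* at 0.00 ± 0.06 and -0.07 ± 0.06, past the threshold in neither.

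Among the assembly chaperones, *Psmg1*, the partner of *Psmg2* in alpha ring assembly, had 1579, 1797, 1624 and 1886 in PF and 1305, 1405, 1493 and 1569 in ZRPF. It fell by 0.25 ± 0.08 (adjusted p = 0.0339), with every ZRPF array below every PF array, and stood at -0.22 ± 0.08 in ZR against ZD (adjusted p = 0.0555). *Psmg4* fell in ZR against ZD (-0.21 ± 0.07, adjusted p = 0.0459), with 1610, 1381, 1364 and 1349 in ZD and 1286, 1150, 1229 and 1257 in ZR. The remaining activators and the inhibitor did not pass: *Psme1* stood at 0.00 ± 0.07 and -0.10 ± 0.07, *Psme2* at -0.09 ± 0.09 and -0.12 ± 0.09, and *Psmf1* at -0.04 ± 0.09 and -0.12 ± 0.09. *Psmb10* stood at 0.03 ± 0.10 and -0.18 ± 0.10. The signs of *Psmb5*, *Psmd2*, *Psme1* and *Psmf1* in both comparisons, and of *Psmb10* between the pair-fed groups, turned under at least 1 other setting.

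**Figure D4:**
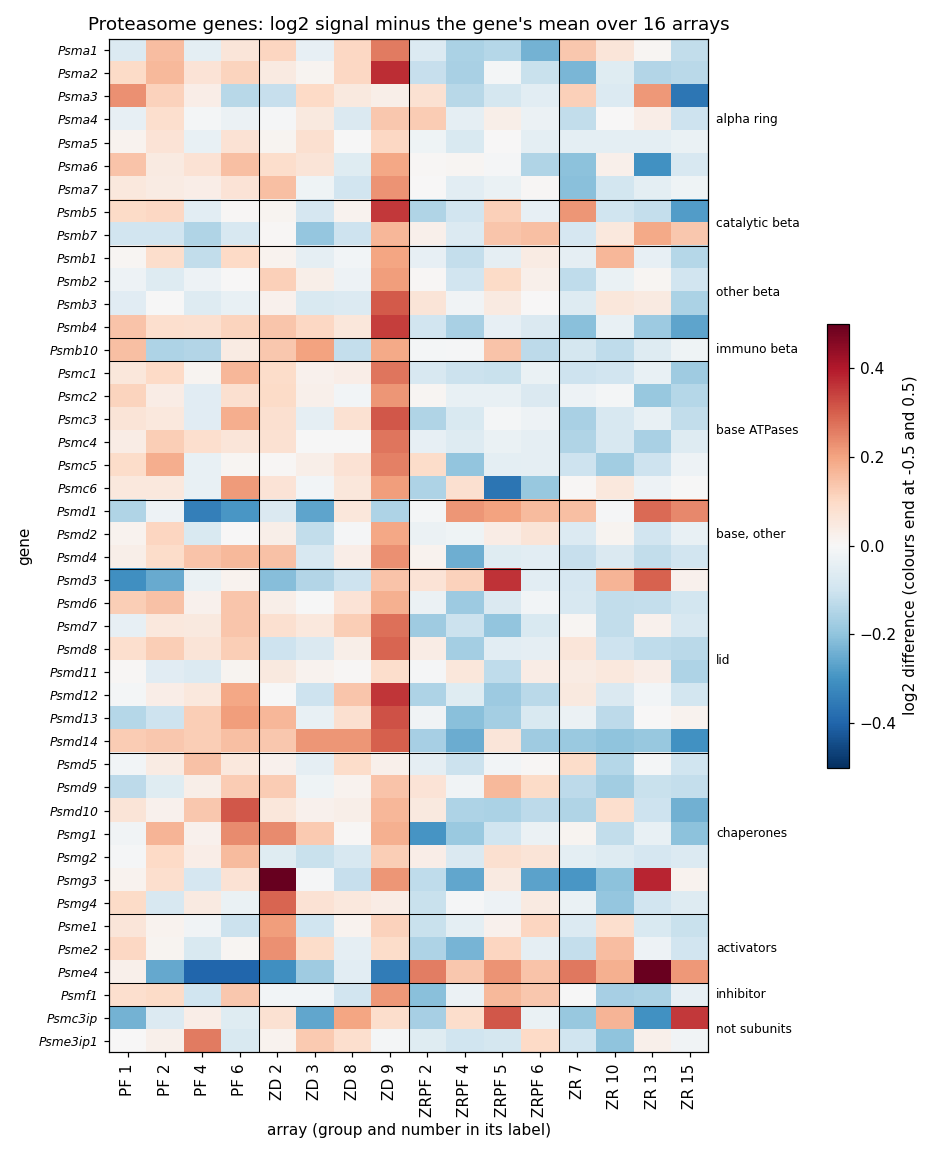
Log2 signal of the 44 tested proteasome genes (rows, grouped by role) in the 16 arrays (columns, by group and the number in the label), as the difference from the gene's own mean over 16 arrays, with colours ending at -0.5 and 0.5. The column of array ZD 9 is above the mean in 41 of 44 genes, and the 8 columns at the right (ZRPF and ZR) are mostly below it.

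The 10-day and 16-day arrays also differed in other measures. Beside the beta-actin ratio, that of Gapdh was 0.05 to 0.15 at 10 days and 0.15 to 0.30 at 16 days. With the beta-actin ratio as a covariate, 7 and 17 of all 15521 probe sets passed and none of the members, against 2430 and 2692 without it. The changes of *Psme4* were then 0.62 and 0.67, those of *Psmd1* 0.58 and 0.49, those of *Psmd14* -0.19 and -0.37, and those of *Psma2* -0.07 and -0.15. With the Gapdh ratio 1 and 4 of the 44 members passed, where 4.97% and 5.06% of all probe sets did. Of 9 tested markers of the hypothalamus, 4 rose in each comparison and none fell, and the summed signal of the 11 on the array was 27518 to 36516 at 10 days and 38744 to 46620 at 16 days. That of the 10 thalamus markers was 26397 to 34832 and 28563 to 35864. Of the 10 tested markers of meninges and mural cells, 5 fell in ZR against ZD, where all 10 were lower in sign (median -0.61), and none passed between the pair-fed groups (median -0.03). Both tested markers of the telencephalon were lower in each comparison (medians -0.42 and -0.53), and 1 of them fell in each. Of the 6 tested markers of the ependyma, 2 rose in ZRPF against PF and 2 fell in ZR against ZD. None of the 7 tested choroid plexus markers passed, but 7 were higher in sign in ZRPF against PF (median 0.84) and 4 in ZR against ZD (median 0.004). The summed signal of the 10 on the array was 7721 to 9268 in PF and 7340 to 33813 in ZRPF. It was 8559 to 19865 in ZD and 7072 to 32714 in ZR. Beside these small counts, 9.50% of all probe sets rose and 6.15% fell in ZRPF against PF, and 9.16% and 8.18% in ZR against ZD. In whole tissue, fewer cells of a type and less RNA per cell cannot be told apart, nor can duration, age, experiment and array batch here. The part of RNA integrity and of dissection in the changes was not tested, as the fits with the beta-actin ratio can hardly separate it from the experiment.

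**Figure D5:**
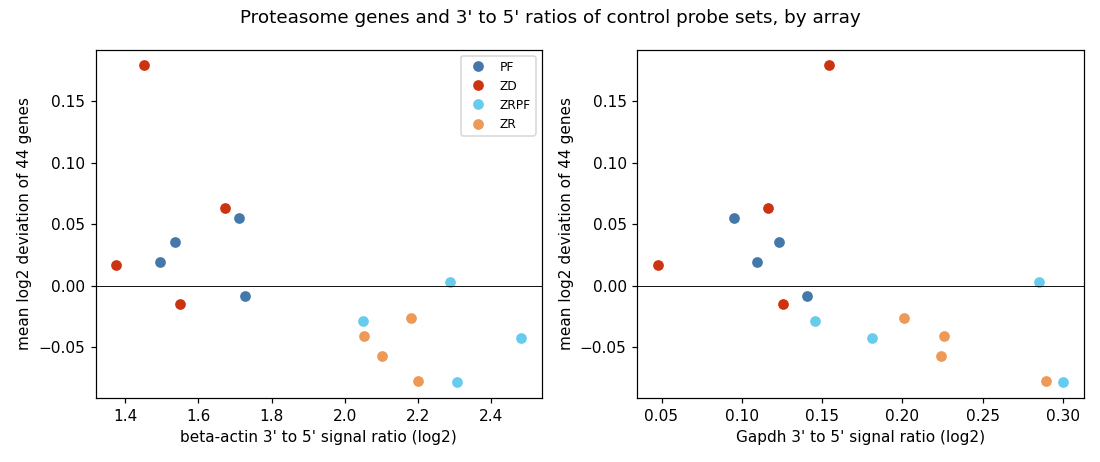
Mean log2 deviation of the 44 tested proteasome genes from their own means (y axis) in each of the 16 arrays, against the log2 ratio of the 3' to the 5' probe sets of beta-actin (left) and Gapdh (right). The 16-day arrays (ZRPF, ZR) have ratios of 2.05 to 2.48 for beta-actin and member means of -0.08 to 0.003, and array ZD 9 stands at 0.18 with a beta-actin ratio of 1.45.

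From array to array the proteasome genes moved together, less so without array ZD 9. The mean deviation of the 44 genes from their own averages was -0.008 to 0.055 in PF, -0.014 to 0.063 in ZD without array ZD 9, -0.078 to 0.003 in ZRPF and -0.077 to -0.026 in ZR. Array ZD 9 stood apart at 0.179, with 41 of 44 genes above their mean. After removal of the group means the median correlation over the 946 pairs of members was 0.26 across the 16 arrays, with 74.7% of pairs above 0, against 0.0003 between members and other probe sets. Without ZD 9 it was 0.11 against 0.003. The genes most like the rest in this respect were *Psmg2* (median correlation with other members 0.56), *Psmc1* (0.54) and *Psmb4* (0.50), and the least like were *Psme3ip1* (-0.24), which is no subunit, *Psme4* (-0.19) and *Psmg4* (-0.14). All such pairs share the array, its labelling and its scaling, and members and other probe sets were not matched for signal. The first principal component of the members held 47.8% of their variance and was positive in the 8 10-day arrays and negative in the 8 16-day arrays.

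The genes that work with the proteasome were read from 5 lists. In neither diet comparison did any gene of the lists pass, and the values of smallest p in ZD against PF were those of *Ube3c*, a ubiquitin ligase of the proteasome (0.21 ± 0.08), *Ube2d1*, a ubiquitin-conjugating enzyme (0.16 ± 0.07), *Nploc4*, a cofactor of the unfoldase *Vcp* (0.19 ± 0.14), and *Vcp* itself (0.06 ± 0.05). Next in their lists came *Txnl1*, a thioredoxin bound to the regulatory particle (-0.09 ± 0.06), *Ube2g1*, another conjugating enzyme (-0.13 ± 0.07), *Bag6*, a chaperone of misfolded proteins (0.12 ± 0.14), and *Nfe2l1* (0.08 ± 0.07). In ZR against ZRPF they were *Akirin2*, which couples proteasomes to nuclear import (-0.33 ± 0.12, adjusted p = 0.927), *Ube2d1* (0.18 ± 0.07), *Vcp* (-0.12 ± 0.05), *Stub1*, a ubiquitin ligase of chaperones (-0.10 ± 0.08), and *Irf1* (0.11 ± 0.16). Next came *Ipo9*, the importin that *Akirin2* binds (0.13 ± 0.07), *Ngly1*, the glycanase that processes NRF1 (0.12 ± 0.08), *Ube2g2* (0.12 ± 0.09), *Ubxn1* (-0.08 ± 0.08) and *Pdia3* (-0.05 ± 0.08).

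Between the experiments, 3 of 12 proteasome partners outside the *Psm* names fell in ZRPF against PF and none rose, where 6.15% of all probe sets fell and 9.50% rose: *Akirin2* (-0.69 ± 0.12, adjusted p = 0.000651), *Txnl1* (-0.28 ± 0.06, adjusted p = 0.00348), and *Uchl5*, a deubiquitinase (-0.23 ± 0.07, adjusted p = 0.0301). In ZR against ZD *Akirin2* fell again (-0.96 ± 0.12, adjusted p = 3.44e-05), and *Ipo9* rose (0.28 ± 0.07, adjusted p = 0.00785), where 8.18% of all probe sets fell and 9.16% rose. The counts of the other lists stand against the same shares. Of 8 tested genes on the NRF1 route none passed in either comparison, with *Nfe2l1* at -0.07 ± 0.07 and -0.08 ± 0.07. The smallest p there were those of *Vcp* (0.12 ± 0.05) and *Ngly1* (-0.18 ± 0.08) between the pair-fed groups and of *Syvn1*, a ubiquitin ligase of the endoplasmic reticulum (0.23 ± 0.11), and *Ngly1* (-0.12 ± 0.08) in ZR against ZD. Of 10 genes of ubiquitin and its activation, 2 rose and 1 fell in ZRPF against PF and 3 rose and 1 fell in ZR against ZD. The smallest p were those of *Ube2d1* (0.47 ± 0.07 and 0.49 ± 0.07) and, in ZRPF against PF, *Ube2g1*, which fell by 0.36 ± 0.07. *Uba1*, the main ubiquitin-activating enzyme, rose in both (0.47 ± 0.13 and 0.64 ± 0.13). Of 11 shuttle and unfoldase factors, 2 rose and 1 fell in the first comparison and 2 fell in the second, with *Nsfl1c*, a cofactor of *Vcp*, lower in both (-0.24 ± 0.07 and -0.21 ± 0.07), *Ubqln2*, a ubiquilin, higher in the first (0.19 ± 0.05) and *Ubxn4* lower in the second (-0.23 ± 0.07). Of the 5 tested genes of peptide supply to MHC class I, 2 rose in the first comparison and 1 in the second, *Calr* in both (0.67 ± 0.10 and 0.75 ± 0.10) and *B2m*, the light chain of MHC class I, in the first (0.25 ± 0.08, adjusted p = 0.0477, and 0.17 ± 0.08 in the second).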

How the data were processed

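Expression was measured on 16 arrays, 1 rat each. The deposited values are linear intensities (signals) that the authors made with MAS5, per the submitters' processing notes; version and scaling target are not given in the sources used here. Trimmed of 2% of probe sets at each end, the mean was 500.1 on each array, and the median ran from 157 to 173. This scaling fixes the mean of each array, so a shift of all genes cannot be seen. Signals were taken as log2 and not normalized again. Precision is limited by the number of arrays. P-values measure the spread between these rats, which were picked as average. Errors, intervals and p-values may therefore understate the spread between rats of a group.

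Of 31099 probe sets, 57 controls were set aside, and 15521 with a mean log2 signal at or above the median (7.35, a signal of 163) were tested. Gene names came from the platform's table, in which 20826 probe sets have 1 gene, 436 have several and 9780 have none. A single limma fit (version 3.58.1, R 4.3.3, lmFit and eBayes with trend) covered the 4 groups, and p-values were adjusted by Benjamini-Hochberg over all probe sets tested, with a threshold of 0.05. Errors after ± are standard errors of log2 changes, and intervals cover 95%. The fit was tested on simulated data.

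The members, gene lists, motifs and tests were chosen with earlier results of these data known. Values are given for up to 12 members per direction past the threshold in each comparison, the 3 of smallest p per direction, the catalytic, inducible, ubiquitin-binding and deubiquitinating subunits, the activators and the inhibitor, members whose probe sets changed in opposite directions by over 2 standard errors each, of which there were none, and the 2 genes of smallest p per pathway list. *Psmb6* and *Psme3*, which this rule also names, have no probe set of their own and are not analysed here. The PF and ZRPF arrays share 3 numbers, but deviations of same-numbered arrays correlated at 0.02 to 0.08, so numbers were not used as pairs. Alternatives covered scaling, the filter, an offset of 32 before log2, the variance trend, array weights, 3' to 5' ratios as covariates, averaged probe sets, the groups in the fit, a replicate block and each array left out. The beta-actin covariate was chosen after seeing the data.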

Additional observations from a re-analysis of the deposited data

Results flagged for a closer look

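In 7 of 124 groups of 4 arrays, over 31 named members, 1 array lay far from the other 3 by Dixon's criterion. Chance alone gives about 1 in 20 such groups.

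Below the others were *Psma6*, an alpha ring subunit, at 5661 in ZRPF array 6 (the others 6251 to 6311), *Psmd14*, the lid deubiquitinase, at 1884 in ZR array 15 (2018 to 2044), and *Psmb9*, the inducible beta subunit, at 96.7 in ZR array 13 (138 to 148). Above the others were *Psmb8*, the inducible counterpart of *Psmb5*, at 181 in PF array 1 (144 to 148), *Psmd10*, a base chaperone, at 1421 in ZRPF array 2 (1230 to 1253), *Psmd8*, a lid subunit, at 1552 in ZR array 7 (1356 to 1386), and *Psmg4*, an alpha ring chaperone, at 1610 in ZD array 2 (1349 to 1381).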

How the results depend on the processing

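No member passed in ZD against PF, ZR against ZRPF or the interaction under any alternative run. The median change of the interaction, -0.063, was -0.0041 with arrays centred on their medians and -0.085 to -0.012 with 1 array left out, the latter end without ZD 9.

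In ZRPF against PF, where 8 members passed, 4 did with quantile normalization, 15 with median centring (median change -0.178), 3 without the filter, 3 without the intensity trend, 1 with the Gapdh ratio and 0 with the beta-actin ratio as a covariate. Of all probe sets, 15.40% passed there with quantile normalization and 20.11% with median centring. With 1 array left out, 3 to 6 passed: 3 without PF 2 or PF 6, 4 without ZRPF 4, 5 without PF 1, PF 4, ZRPF 2 or ZRPF 5, and 6 without ZRPF 6. With the 3 shared numbers as a replicate block, on the 6 arrays that have them, 2 members passed, against 3 on these arrays without the block. No paired fit was possible in the other comparisons, because PF and ZD share 1 number and ZR shares none. In ZR against ZD, where 10 passed, 6 did without the filter, 5 without the trend, 4 and 0 with the covariates and 3 when only these groups were fitted. With the covariates 5.06% and 0.110% of all probe sets passed there, against 17.3% in the main fit. With 1 array left out, 4 to 12 passed, with 4 without ZR 7, 5 without ZD 2, ZD 9, ZR 13 or ZR 15, 7 without ZR 10, 10 without ZD 3 and 12 without ZD 8. In both comparisons, shares of all probe sets were not taken for the fits without the filter or the trend, with only the groups compared, with the block or with an array left out. Those counts of members therefore stand without a share beside them. Why the counts of members changed between settings was not tested. Fits with an array left out also rest on fewer arrays. *Psme4* passed in 19 of 20 alternatives for the pair-fed groups and 18 of 19 for ZR against ZD, *Psmd14* in 18 of 20 and 18 of 19, *Psmd1* in 16 of 20 and 6 of 19, and *Psmb4* in 7 of 20 and 18 of 19. None of the members past the threshold in these comparisons changed sign in the comparison where it passed.

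Changes of sign were found for named members that did not pass, and none passed with the other sign. In ZRPF against PF, *Psmb10* stood at -0.0253 with quantile normalization, -0.0594 with median centring, and -0.109 and -0.146 with the Gapdh and beta-actin ratios, *Psmd2* at -0.0841 with median centring, -0.00133 with array weights, -0.0158 with the Gapdh ratio and -0.00619 with the replicate block, and *Psme1* at -0.0816 with median centring. *Psmf1* stood there at 0.255 with the beta-actin ratio, and *Psmb5* at 0.234 with it and 0.512 with its probe sets averaged. In ZR against ZD, the beta-actin ratio gave 0.152 for *Psmb5*, 0.104 for *Psmd2*, 0.0951 for *Psme1* and 0.158 for *Psmf1*, and averaging gave 0.00609 for *Psmb5*. The other probe sets of *Psmb5* lie below the filter. With 1 array left out, the ranges in ZRPF against PF were -0.0218 to 0.0850 for *Psmb10*, -0.0282 to 0.0321 for *Psmd2*, -0.0349 to 0.0378 for *Psme1* and -0.0897 to 0.0360 for *Psmf1*. In ZD against PF, *Psmb5* stood at -0.00739 with median centring, -0.011 with array weights and -0.014 with the beta-actin ratio, *Psmd2* at -0.033, -0.023 and -0.019 in that order, *Psmd7* at -0.0037 with probe sets averaged, and *Psme4* at -0.0073 with median centring and -0.088 with probe sets averaged. In ZR against ZRPF, *Psmb7* stood at -0.0057 with array weights and -0.0034 with the beta-actin ratio, and *Psmd4* at 0.0043 with the latter. With 1 array left out, the ranges in ZD against PF were -0.057 to 0.090 for *Psmb5*, -0.046 to 0.059 for *Psmd2*, -0.074 to 0.030 for *Psmd4*, -0.020 to 0.130 for *Psme4* and -0.093 to 0.011 for *Psmf1*. In ZR against ZRPF they were -0.123 to 0.044 for *Psmb5*, -0.031 to 0.065 for *Psmb7*, -0.070 to 0.018 for *Psmd4* and -0.078 to 0.0029 for *Psme1*. *Psmb8* and *Psmb9* lie near background.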
